A study of Mus musculus with 7 samples.

Results

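Kinesin motor genes encode proteins that use ATP to walk along microtubules or to shorten them. They were taken as every gene of the deposited gene table whose mouse symbol begins with Kif and a digit, with a mean of at least 10 counts over the 7 libraries. Of the 22248 genes in the table, 39 carried such a symbol and 32 reached that mean. One of the 32, Kif1bp, encodes a protein that binds kinesins and is no motor itself, so it is described apart from the 31 motors. The motors were split into 15 transport kinesins, 7 mitotic kinesins and 9 others. Among the 7 genes left out, Kif23 (9.29), Kif15 (8.86), Kif18b (5.86), Kif28 (3.29) and Kif14 (1) had a low mean count, and Kif12 and Kif2b were listed at 0 in every library. Just inside the minimum lay Kif20b with a mean of 14.6 counts and Kif2c with 15, and just outside it lay Kif23 and Kif15.

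The messenger RNA came from hippocampal synaptoneurosomes, a brain fraction of resealed nerve terminals that keep a piece of the postsynaptic side. All mice were wild-type C57Bl/6J females, and no genotype or sex other than this was compared. There were 4 libraries after sub-chronic AM6545 (replicates B, D, E and F), a cannabinoid CB1 receptor antagonist that enters the brain poorly, and 3 libraries after vehicle (replicates B, D and E). The labels give no dose, duration, age or number of mice per library, and they do not say that libraries came from separate animals, so p-values measure only the spread between these libraries.

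In neurons, kinesins carry cargo along the parallel microtubules of the axon and the mixed ones of dendrites. Most bind cargo through the tail of the heavy chain or through light chains and adaptors, and cytoplasmic dynein with dynactin carries cargo the other way. Mitotic kinesins build and move the spindle in dividing cells, and some are also present at a low level in neurons that no longer divide. The messenger RNAs of several motors lie in neuronal processes, which is what a synaptic fraction samples together with whatever glial material comes along.

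The libraries held 19174649 to 25894733 counts, and the 31 motors together took 0.353% to 0.401% of them. Levels are given as CPM, that is counts relative to the library's total after TMM scaling. The 7 markers listed for excitatory synaptoneurosomes, of both sides of the synapse, were present in every library, with a summed level of 7226 to 7485 CPM after AM6545 and 6988 to 7360.5 CPM after vehicle. The lowest of them was Dlg4, a postsynaptic scaffold, at 45.6 to 66.6 CPM against 51.99 to 104 CPM. Dlg4 and Ddn, whose RNA lies in dendrites, had negative log2 fold changes of -0.52 and -0.69. In edgeR's quasi-likelihood test their unadjusted p was 0.0289 and 0.00237, and their adjusted p 0.2998 and 0.199. Ddn and Gria1 lay lower in every AM6545 library than in every Vehicle library, and Snap25 lay higher. Of the 7 markers 5 had negative fold changes, while Snap25 and Syn1 had positive ones of 0.21 and 0.16 (adjusted p = 0.365 and 0.665). The first principal component, with 39.9% of the variance of log2 CPM, placed the library labelled Vehicle B farthest from the rest. Glial RNA was also present, with a summed level of the 5 oligodendrocyte markers of 14529 to 16993 CPM after AM6545 and 14759.9 to 18854 CPM after vehicle. The 5 microglial markers summed to 396 to 420.3 CPM against 401 to 565 CPM, and the 5 astrocyte markers to 1542 to 1882 CPM against 1462 to 1986 CPM. Of the microglial markers, C1qa, C1qb and Tyrobp lay lower in every AM6545 library than in every Vehicle library, with log2 fold changes of -0.47, -0.45 and -0.65 and adjusted p of 0.205, 0.212 and 0.199, while Cx3cr1 and P2ry12 overlapped. The 3 genes listed for oligodendrocyte precursors summed to 223 to 235 CPM after AM6545 and 253 to 277 CPM after vehicle, with no overlap. Most of that sum was Olig1, at 194 to 207 CPM against 221 to 238 CPM, so the sum mostly follows that gene and is no measure of precursors. Cspg4 was also lower without overlap, while Pdgfra overlapped, with a log2 fold change of 0.033. Of all genes tested 7.19% lay lower in every AM6545 library than in every Vehicle library, and 6.63% lay higher. The 4 endothelial markers summed to 9.95 to 17.8 CPM against 9.92 to 17.6 CPM. None of these markers was at 0 in all libraries. These markers had fold changes of both signs, as the kinesin genes had, and their part in the kinesin values was not tested. In bulk material fewer cells of a type and less RNA per cell cannot be told apart.

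The motors share a nucleotide-binding loop, the P-loop, whose codons are shown because most of these genes hold them and because they show how far near relatives differ. A script searched the coding strand for codons of a glycine, any residue, a threonine, any pair of residues, a glycine, a lysine and then a threonine or serine. It found them in 29 of the 31 motors, where further counted coding transcripts were searched if the most counted one had no match. In the most counted coding transcript alone they occurred in 0.611% of the 22087 genes with a coding transcript in the table, motors included. The 2 motors without a match were Kif26a and Kif26b, a pair known as atypical kinesins without ATPase activity. Each line below gives the 24 bases of those codons in capitals with 9 coding bases on either side, 5′ to 3′ on the coding strand, from GENCODE M21 on GRCm38.
Kif5a: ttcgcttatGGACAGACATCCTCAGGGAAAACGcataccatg
Kif5c: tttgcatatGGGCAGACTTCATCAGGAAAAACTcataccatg
Kif1b: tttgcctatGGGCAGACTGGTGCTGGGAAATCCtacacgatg
Kif1c: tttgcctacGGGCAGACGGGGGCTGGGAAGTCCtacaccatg
Kif3a: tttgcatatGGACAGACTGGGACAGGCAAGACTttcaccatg
Kif3b: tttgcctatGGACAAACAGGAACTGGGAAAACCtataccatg
Kif3c: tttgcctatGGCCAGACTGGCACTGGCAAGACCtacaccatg
Kif2a: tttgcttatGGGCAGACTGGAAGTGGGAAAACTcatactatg
Kif11: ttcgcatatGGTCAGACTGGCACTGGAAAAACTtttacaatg
The capitals lie in coding exons at chr10:127248042-127248065 for Kif5a, chr2:49680203-49680226 for Kif5c, chr4:149274967-149274990 for Kif1b and chr11:70703804-70703827 for Kif1c. They lie at chr11:53578861-53578884 for Kif3a, chr2:153316566-153316589 for Kif3b, chr12:3366269-3366292 for Kif3c, chr13:106979480-106979503 for Kif2a and chr19:37384736-37384759 for Kif11. The coding strand is the minus strand for Kif5a, Kif1b and Kif2a and the plus strand for Kif5c, Kif1c, Kif3a, Kif3b, Kif3c and Kif11. Over those capitals Kif5c differed from Kif5a at 5 bases, and Kif3b and Kif3c from Kif3a at 7 and 4. Differences of this kind run through the whole transcripts: of the stretches of 31 bases in Kif5a, Kif5c and Kif21b, 0% occurred in a transcript of any other gene, and of those in Kif1a 0.264%. Others overlap a neighbour on the opposite strand, and the use of strand is not given in the sources used here. Shared with other genes were 40.2% of the stretches of Kif3c, mostly with 1110002L01Rik, 22.1% of Kif2a, mostly with Dimt1, 26.7% of Kif20a with Cdc23, 18.1% of Kif7 and 15.7% of Kif4, so the counts of these 5 genes are uncertain.

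Kif5a, a heavy chain of conventional kinesin, was the motor with the highest level per length, at 206 ± 30.3 CPM per kb (SD, n = 7). Kif5b followed at 82.8 ± 4.93, Kif5c at 78.95 ± 7.304, Kif1a at 76.4 ± 11.6 and Kif3a at 65.8 ± 7.99 CPM per kb. Together these 5 genes made up 82.5% of the summed level of the 31 motors, and Kif5a alone made up 33.3%. The range of Kif5a over the 7 libraries did not overlap that of Kif5b, while from Kif5b through Kif5c and Kif1a to Kif3a each gene's range overlapped that of the next in the order. Kif1b stood apart below Kif3a at 34.3 ± 4.12 CPM per kb. Kif3c and Kif21a, with 19.9 ± 1.26 and 19.7 ± 1.99 CPM per kb, could not be ordered beyond their spread. Kif2a, Kif17 and Kif3b formed the next step, at 5.34 to 5.85 CPM per kb, and their ranges overlapped in turn. Below Kif13a, at 2.05 ± 0.182 CPM per kb, every gene's range overlapped that of its lower neighbour, down to Kif20b at 0.1201 ± 0.0427 CPM per kb. Level per length divides by a length weighted over the counted transcripts, so it depends on the annotation.

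**Figure D1:**
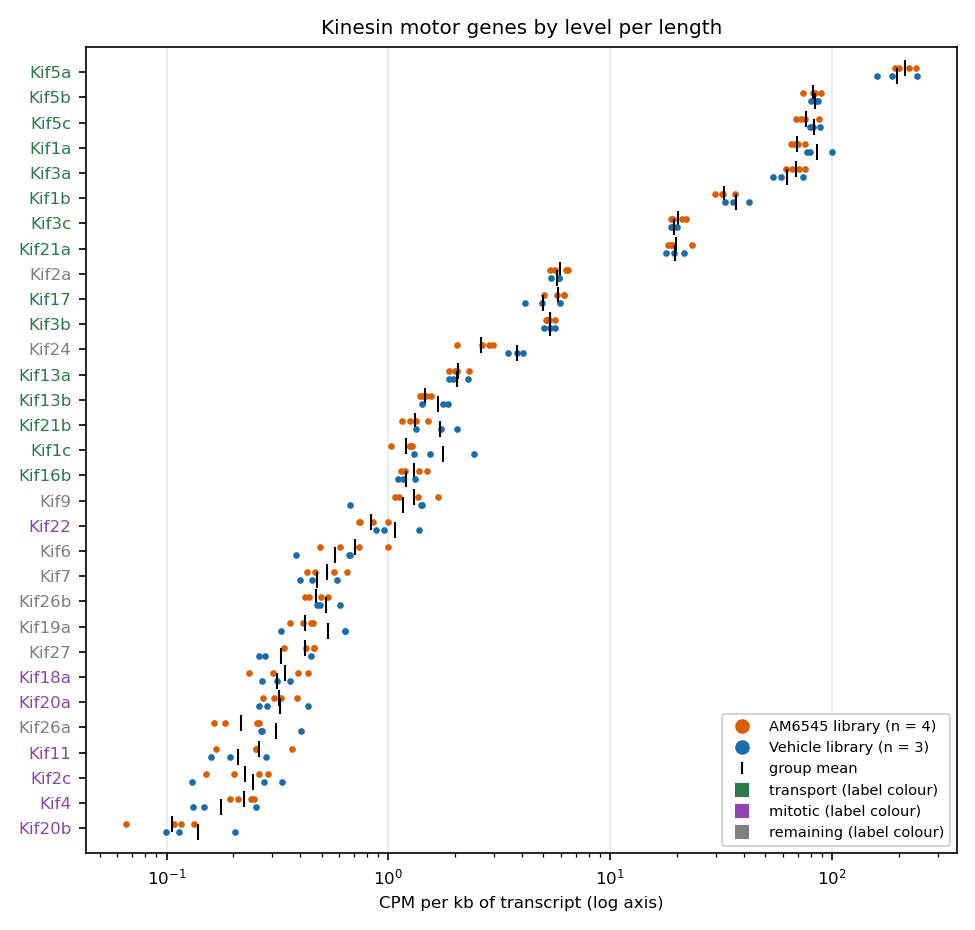
Level of the 31 motors in CPM per kb of transcript (log axis), 1 point per library, with AM6545 in orange, Vehicle in blue and group means as black ticks. Kif5a lies highest at 159 to 242 CPM per kb, and the mitotic kinesins, labelled in purple, reach at most 1.38 CPM per kb.

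No kinesin gene passed an adjusted p of 0.05 between AM6545 and Vehicle in edgeR's quasi-likelihood test, in which 0.00682% of all 14654 genes tested did (1 gene). All 32 genes passed the low-count filter, and their lowest adjusted p was 0.237. The log2 difference below is the log2 fold change, AM6545 over Vehicle. At an unadjusted p under 0.05 there were 4 of 32 (12.5%), against 14.6% of all genes. The 4 were Kif1a, Kif1c, Kif21b and Kif24, all with lower values after AM6545, where 8.7% of all genes were lower at that p and 5.86% were higher. In 4 genes, Kif1a, Kif1c, Kif24 and Kif26a, every AM6545 library lay below every Vehicle library, which held for 7.19% of all genes, and in none did every AM6545 library lie above, which held for 6.63%. DESeq2 and limma-voom also called no kinesin gene at an adjusted p of 0.05, where 1.4% and 2.69% of all genes were called. They had 4 and 9 of 32 at an unadjusted p under 0.05 (12.5% and 28.1%), beside 14.2% and 23.9% of all genes.

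The median log2 fold change was -0.0057 over the 15 transport kinesins, 0.0038 over the 7 mitotic ones and 0.049 over the 9 others, beside 0.0079 over all genes tested. Of the transport kinesins 8 had a negative and 7 a positive fold change, and they spanned -0.56 to 0.22. The share of all counts taken by the motors was 0.375% ± 0.0256 (SD, n = 4) after AM6545 and 0.375% ± 0.0145 (SD, n = 3) after vehicle. The standard error of the log2 fold change ran from 0.095 to 0.19 among transport kinesins and from 0.23 to 0.39 among mitotic ones, whose counts are low.

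**Figure D2:**
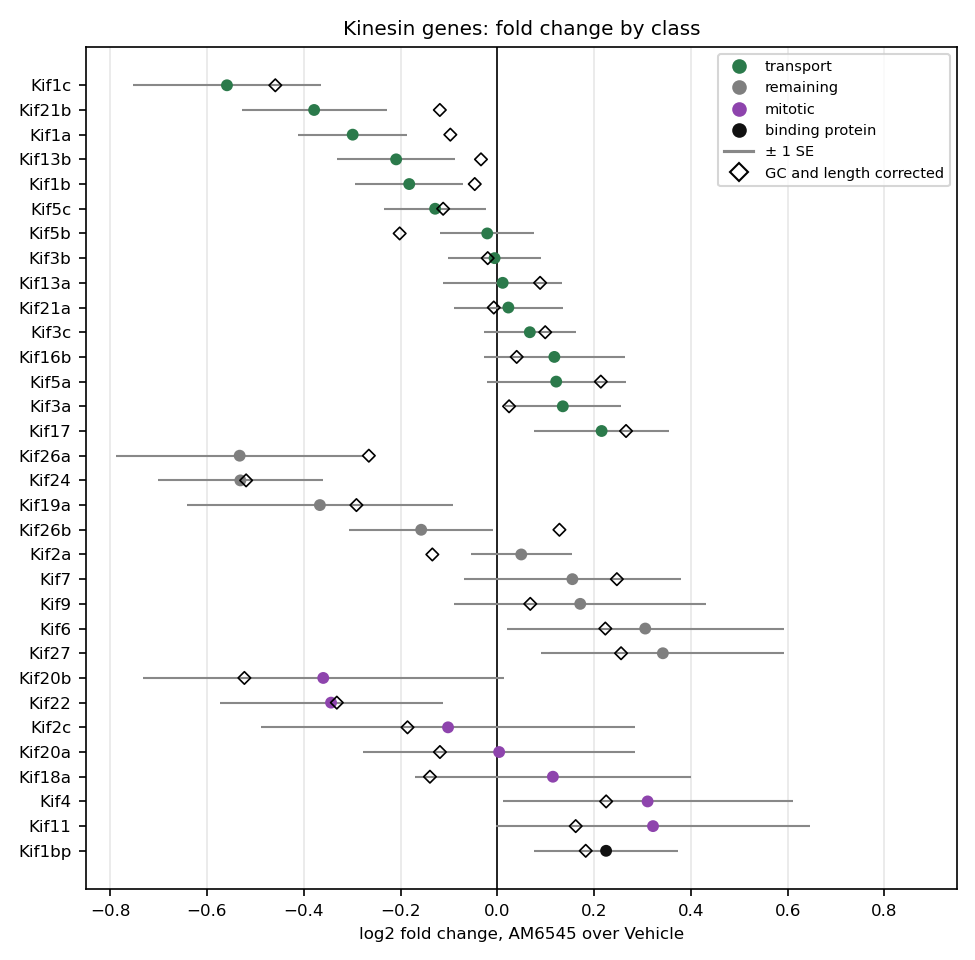
log2 fold change of the 32 genes, AM6545 over Vehicle, by class, with bars of 1 SE, and open diamonds for the value after correction for GC content and length. Kif1c, Kif21b and Kif1a lie lowest among the transport kinesins at -0.56, -0.38 and -0.30, and the diamonds of Kif21b and Kif1a lie nearer 0.

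The 3 heavy chains of conventional kinesin, which carry mitochondria, vesicles and RNA granules, gave overlapping groups. Kif5a (chr10:127225696-127263348, GRCm38), the most neuronal of them, stood at 1261, 1507, 1393 and 1203 CPM in AM6545 B, D, E and F and at 999.6, 1174 and 1525 CPM in Vehicle B, D and E. Its highest and its lowest value were both in the Vehicle group, and the means were 1341 ± 136 CPM (SD, n = 4) against 1233 ± 267 CPM (SD, n = 3), a log2 difference of 0.12 (SE 0.14, adjusted p = 0.707). Kif5b, expressed in most tissues, measured 387, 419, 395 and 346 CPM after AM6545 and 396, 376 and 405 CPM after vehicle. Its groups overlapped throughout, with a log2 difference of -0.021 (SE 0.097, adjusted p = 0.933). For Kif5c, the other neuronal heavy chain, the values were 469, 519, 599 and 495 CPM and 601, 547 and 559 CPM, with a log2 difference of -0.13 (SE 0.11, adjusted p = 0.577). For Kif5c, AM6545 B, D and F were below all Vehicle libraries, while AM6545 E was near the highest of them.

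Of the kinesin-3 motors, Kif1a, Kif1b, Kif1c and Kif13b had negative fold changes. Kif1a (chr1:93015464-93101951), which carries precursors of synaptic vesicles and dense-core vesicles, measured 535, 562, 605 and 520.3 CPM in AM6545 B, D, E and F and 797, 637 and 616 CPM in Vehicle B, D and E. The groups did not overlap, but Vehicle B alone lay far above the others, and the means were 555 ± 37.1 CPM (SD, n = 4) against 683 ± 98.8 CPM (SD, n = 3), a log2 difference of -0.30 (SE 0.11, adjusted p = 0.271) with an unadjusted p of 0.0211. Kif1b, a relative that carries mitochondria and synaptic vesicle precursors, measured 301, 326, 369 and 323 CPM and 427, 362 and 332 CPM. It followed the same order, with Vehicle B highest, but AM6545 E lay above Vehicle D and E, and the result was a log2 difference of -0.18 (SE 0.11, adjusted p = 0.4603). Kif1c (chr11:70700548-70731964), a vesicle motor found in many tissues, was a low member, at 7.31, 7.37, 6.02 and 7.52 CPM after AM6545 and 14.3, 9.07 and 7.68 CPM after vehicle. Its groups did not overlap, with a log2 difference of -0.56 (SE 0.19, adjusted p = 0.252) and an unadjusted p of 0.0134, but the gap between Vehicle E and AM6545 F was only that between 7.68 and 7.52 CPM. Kif13b, which binds phosphoinositide-bearing vesicles, measured 12.5, 13.7, 12.98 and 12.2 CPM and 15.5, 16.4 and 12.5 CPM, and its Vehicle E lay among the AM6545 libraries (a log2 difference of -0.21 (SE 0.12, adjusted p = 0.442)). Kif13a and Kif16b, motors of endosomes, ranged over all libraries from 11.8 to 14.7 CPM and from 6.08 to 8.23 CPM, with overlapping groups.

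In the kinesin-2 group no gene stood apart between treatments. Kif3a, which pairs with Kif3b or Kif3c, measured 202, 176, 165 and 189 CPM in AM6545 B, D, E and F and 145, 157 and 198 CPM in Vehicle B, D and E. AM6545 B and Vehicle E were its highest libraries and Vehicle B its lowest, with a log2 difference of 0.14 (SE 0.12, adjusted p = 0.606). Its partner Kif3b was among the steadiest members, at 31.9, 29.04, 29.3 and 29.97 CPM and 28.5, 31.8 and 30.2 CPM. Its 95% interval of the log2 fold change ran from -0.19 to 0.18. That interval uses a normal approximation on the SE, so it is narrower than one matched to edgeR's test. The neuronal partner Kif3c measured 118, 105, 107 and 123 CPM and 108, 112 and 105 CPM (a log2 difference of 0.067 (SE 0.095, adjusted p = 0.761)). Kif17, a homodimeric motor that carries NMDA receptor subunits into dendrites, measured 17.95, 14.6, 16.7 and 18.04 CPM after AM6545 and 12, 14.3 and 17.3 CPM after vehicle. It had the largest positive fold change among the transport kinesins, with a log2 difference of 0.22 (SE 0.14, adjusted p = 0.478), and Vehicle E lay inside the AM6545 range.

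Kif21a and Kif21b, kinesin-4 motors that slow microtubule growth, are near relatives, and the difference between them was not tested. Kif21a measured 143, 116, 111 and 115 CPM in AM6545 B, D, E and F and 109, 118 and 131 CPM in Vehicle B, D and E, a log2 difference of 0.023 (SE 0.11, adjusted p = 0.937). AM6545 B lay above every other library for Kif21a. Kif21b (chr1:136131389-136177998), which is enriched in dendrites, measured 10.6, 11.5, 12.2 and 13.9 CPM and 18.7, 15.9 and 12.3 CPM. Vehicle E lay among the AM6545 libraries and below AM6545 F, and the means were 12.04 ± 1.38 CPM (SD, n = 4) against 15.6 ± 3.21 CPM (SD, n = 3), a log2 difference of -0.38 (SE 0.15, adjusted p = 0.289) with an unadjusted p of 0.0264.

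**Figure D3:**
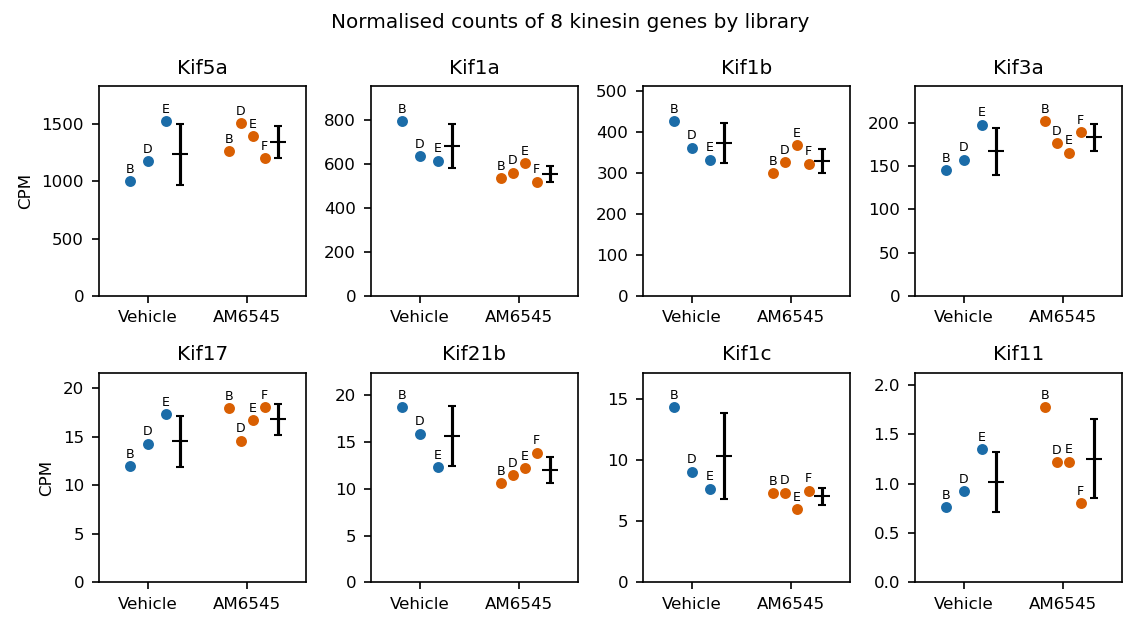
CPM of 8 kinesin genes in each library (letters are replicates; axes start at 0), with the group mean and SD beside the points. Kif1a and Kif1c show no overlap between the groups, and their highest library is Vehicle B at 797 and 14.3 CPM.

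The 9 other motors include microtubule depolymerases and ciliary motors. Kif2a, which shortens microtubules and trims axon branches, was by far the highest of them, at 27.4, 30.5, 25.8 and 31.2 CPM in AM6545 B, D, E and F and 28.5, 28.5 and 26.2 CPM in Vehicle B, D and E, a log2 difference of 0.049 (SE 0.10, adjusted p = 0.845). Kif26a, of the pair without the P-loop codons, measured 1.12, 1.76, 1.27 and 1.804 CPM and 1.85, 2.78 and 1.84 CPM. All its AM6545 libraries lay below all its Vehicle libraries, but at 26 to 69 counts per library the test gave a log2 difference of -0.53 (SE 0.26, adjusted p = 0.364). Its value was -0.30 without Vehicle D and -0.27 when each library's trend with GC content and transcript length was removed. Kif6, a motor of motile cilia, measured 3.24, 1.603, 2.399 and 1.96 CPM and 1.25, 2.18 and 2.16 CPM, and Kif27, a relative of the Hedgehog pathway motor Kif7, measured 2.21, 2.02, 2.21 and 1.61 CPM and 1.33, 2.14 and 1.24 CPM. Both had positive fold changes, 0.31 and 0.34, with adjusted p = 0.627 and 0.5303. These hung on single libraries: Kif6 was at 0.08 without Vehicle B and 0.09 without AM6545 B, and Kif27 at 0.21 without Vehicle E and 0.64 without Vehicle D. Kif7, Kif9, Kif19a and Kif26b ranged from 0.974 to 8.29 CPM over all libraries, and the groups of each overlapped. The 6 ependymal and choroid plexus markers, from tissue that carries motile cilia, summed to 393 to 1822 CPM after AM6545 and 1475 to 2653 CPM after vehicle. Nearly all of this was Ttr, a secreted product of the choroid plexus, at 369 to 1759 CPM and 1425 to 2574 CPM. The genes of motile cilia on the list spread less: Foxj1 ranged from 3.09 to 6.56 CPM and Rsph1 from 9.66 to 16.7 CPM over all libraries, with overlapping groups. Their part in the ciliary motors' values was not tested.

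Kif24 had the lowest p of all kinesin genes, and its counts came mostly from a transcript that encodes no motor. As a gene (chr4:41390745-41464887) it measured 3.55, 2.75, 3.998 and 3.84 CPM in AM6545 B, D, E and F and 5.48, 4.68 and 5.14 CPM in Vehicle B, D and E, with no overlap and a log2 difference of -0.53 (SE 0.17, adjusted p = 0.237) (unadjusted p = 0.00874). On average 93.8% of its counts were assigned to Kif24-204, a processed transcript of 1151 bases with no annotated coding sequence, at chr4:41454390-41464887. Of the 31-base stretches of that transcript 47.8% occurred in other genes, in 101 genes in all. The coding transcripts of Kif24, which encodes a depolymerase of the centriole and cilium base, held 0 to 9 counts per library. The difference given for Kif24 was thus measured mostly on that non-coding transcript, and one in the coding RNA was not detectable at this depth.

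The 7 mitotic kinesins were near the lower end of the measured range in all libraries. Kif11, the motor that pushes spindle poles apart, measured 1.77, 1.22, 1.22 and 0.806 CPM in AM6545 B, D, E and F and 0.765, 0.927 and 1.35 CPM in Vehicle B, D and E, from 19 to 41 counts per library. Its groups overlapped, with a log2 difference of 0.32 (SE 0.32, adjusted p = 0.653). The chromosome-arm motor Kif4 measured 1.04, 0.954, 1.22 and 1.19 CPM and 1.25, 0.726 and 0.649 CPM, and AM6545 had the narrower range (a log2 difference of 0.31 (SE 0.30, adjusted p = 0.637)). The remaining 5, Kif18a, Kif20a, Kif20b, Kif22 and Kif2c, which act in chromosome alignment and cytokinesis, ranged from 0.346 to 2.98 CPM, and the groups of each overlapped. All 7 together held 172 to 196 counts per AM6545 library and 155 to 186 per Vehicle library. The 8 markers of dividing cells were as low: they summed to 6.45 to 9.33 CPM after AM6545 and 6.74 to 9.92 CPM after vehicle, and Bub1 reached at most 0.121 CPM. At this depth differences of about the size of the standard errors, as for Kif11 and Kif4, could not be told from no difference. Larger ones could be missed too: Kif22, with a log2 difference of -0.34 (SE 0.23), had an unadjusted p of 0.161 in edgeR's test.

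Kif1bp, the kinesin-binding protein that keeps some motors off microtubules, measured 387, 316, 289.7 and 346 CPM in AM6545 B, D, E and F and 234, 265 and 360.5 CPM in Vehicle B, D and E. Vehicle E lay above 3 of the 4 AM6545 libraries, and the test gave a log2 difference of 0.22 (SE 0.15, adjusted p = 0.4901).

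Lower fold changes went with higher GC content of the transcripts. Across the 32 genes Spearman's rho between GC content and log2 fold change was -0.28, beside -0.42 across 14633 genes tested, a description over genes that share the same libraries. With transcript length in place of GC content, rho was -0.34 across the 32 genes and 0.25 across the 14633. Among the 15 transport kinesins it was -0.69 with length and -0.23 with GC content. The correction below removed both trends together, so their parts in a shift were not separated. Each library's deviation in log2 CPM changed with GC content by -0.12 to -0.027 per 10 points of GC after AM6545 and by 0.046 to 0.13 after vehicle. The groups did not overlap, with p = 0.0571 in a two-sided exact permutation test, the smallest p it can give. Kif1a and Kif21b, with 55.3% and 56.6% GC, moved from -0.30 to -0.097 and from -0.38 to -0.12 when the trend of each library with GC content and transcript length was removed. Kif1c, with 54.9% GC, kept -0.46, and Kif24, with 46.3%, kept -0.52. Kif5b, with 41.7% GC, went from -0.021 to -0.20, and Kif17, with 58.5%, from 0.22 to 0.27. After correction no kinesin gene had an adjusted p under 0.05, and 3 of 32 (9.38%), Kif1c, Kif24 and Kif5b, had an unadjusted p under 0.05, where 6.74% of all genes had one. With the replicate letter as a block added to the correction 2 of 32 had one, and 2.91% of all genes. Because the GC trend differed between the groups, the correction could also remove a treatment difference that follows GC content. In this design these cannot be told apart. The source of the trend was not tested.

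**Figure D4:**
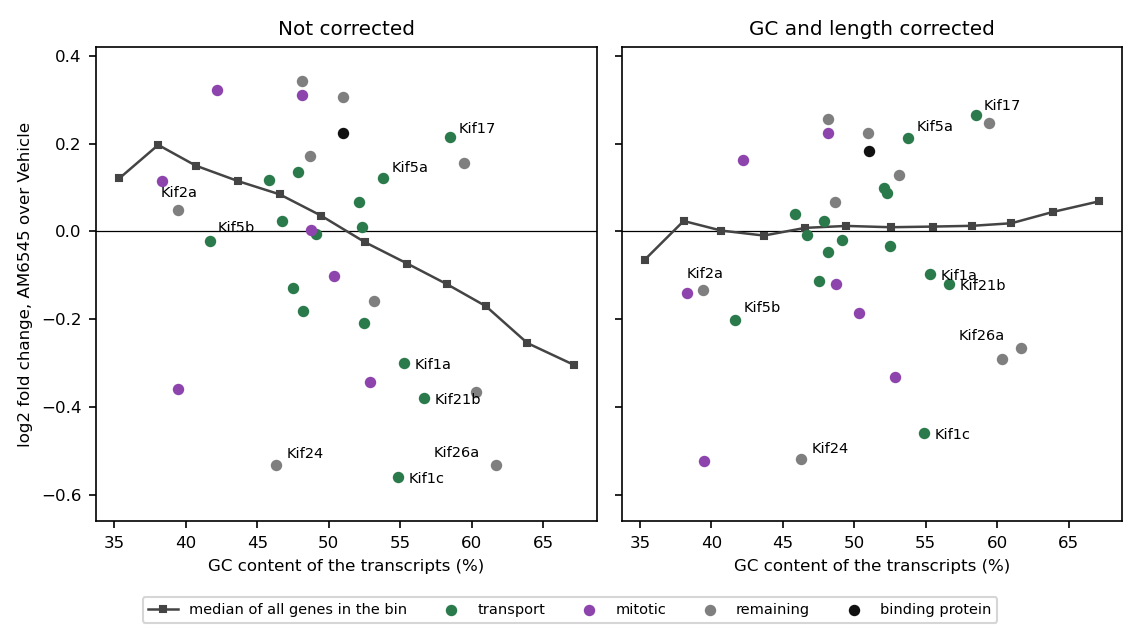
log2 fold change of the 32 genes against the GC content of their transcripts, before (left) and after (right) correction for GC content and length, with the median of all genes in bins of 3 points of GC as a line. The line falls from 0.20 at 38.1% GC to -0.30 at 67.1% GC on the left, and Kif1a and Kif21b lie nearer 0 on the right.

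The differences of Kif1c, Kif1a and Kif21b were smaller without Vehicle B. There the log2 fold change was -0.25 for Kif1c, -0.17 for Kif1a and -0.23 for Kif21b, and 2 kinesin genes (6.25%), Kif24 and Kif26a, had an unadjusted p under 0.05, beside 6.46% of all genes. Leaving out Vehicle E, whose score on the first principal component lay within the range of the AM6545 libraries, gave -0.73 for Kif1c (adjusted p = 0.0336) and -0.52 for Kif21b (adjusted p = 0.0413). In that fit 2 of 32 kinesin genes (6.25%) had an adjusted p under 0.05, and 6.38% of all genes had one. At an unadjusted p under 0.05 there were 12 of 32 (37.5%), against 25.7% of all genes. Kif24 stayed between -0.59 and -0.43 whichever library was left out.

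In the transcript table the 32 genes had 191 transcripts, of which 65 passed the filter. None had an adjusted p under 0.05, as 0.0177% of all 33962 transcripts tested had, and 10 (15.4%) had an unadjusted p under 0.05, against 8.39% of all. Those 10 were split into 5 lower and 5 higher. Kif1a came mainly from Kif1a-204 (89.9% of its count, 1697 codons), which measured 472, 502, 531 and 473 CPM after AM6545 and 763, 578 and 537 CPM after vehicle, a log2 difference of -0.34 (SE 0.13, adjusted p = 0.569). Kif1a-210 took 10.3% ± 1.38 (SD, n = 4) of the gene after AM6545 and 7.71% ± 3.18 (SD, n = 3) after vehicle, with its lowest share in Vehicle B. Kif1b was almost all the long coding form, Kif1b-203 with 1816 codons, at 97.8% of its count, and the short form Kif1b-201 with 1150 codons held 2.04%.

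Kif21a was spread over 4 long coding transcripts, and the share of Kif21a-205 was lower in every AM6545 library than in every Vehicle library. That share was 29.7, 27.8, 32.03 and 39.2% in AM6545 B, D, E and F and 41.4, 41.5 and 41.1% in Vehicle B, D and E. The gap was narrow, from 39.2% in AM6545 F to 41.1% in Vehicle E. The shares were not tested, and how often shares of other transcripts do not overlap is not given here. The level of Kif21a-205 had a log2 difference of -0.34 (SE 0.13, adjusted p = 0.574), while Kif21a-204, Kif21a-202 and Kif21a-201 had positive fold changes of 0.19, 0.22 and 0.41. Among the higher transcripts, Kif2a-204 measured 8.19, 8.51, 8.63 and 6.43 CPM and 5.25, 6.25 and 5.93 CPM (a log2 difference of 0.45 (SE 0.16, adjusted p = 0.562)), and Kif17-204 measured 6.63, 5.21, 4.12 and 5.02 CPM and 3.27, 3.37 and 4.17 CPM (a log2 difference of 0.54 (SE 0.22, adjusted p = 0.576)). Kif16b-205 had a log2 difference of 0.75 (SE 0.25, adjusted p = 0.559), with 5.895, 5.21, 4.69 and 4.44 CPM after AM6545 and 4.04, 2.396 and 2.57 CPM after vehicle. The gene Kif16b itself had a log2 fold change of 0.12, and the share of Kif16b-205 ran from 32.7% to 90.3%. The other tested forms, Kif16b-201, Kif16b-202 and Kif16b-203, were each listed at 0 in some libraries. The assignment of reads to transcripts was unstable for other low genes too. Kif21b-201, a coding form of Kif21b, was listed at 0 in AM6545 F, Vehicle B and Vehicle E, where nearly all counts went to Kif21b-204. The latter is annotated for nonsense-mediated decay but also has a coding sequence, of 1639 codons with the P-loop codons. Kif1c-204 and Kif1c-203, both with 1100 codons, were each listed at 0 in some libraries where the other was counted, so shares of Kif1c transcripts carry no order between the groups.

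**Figure D5:**
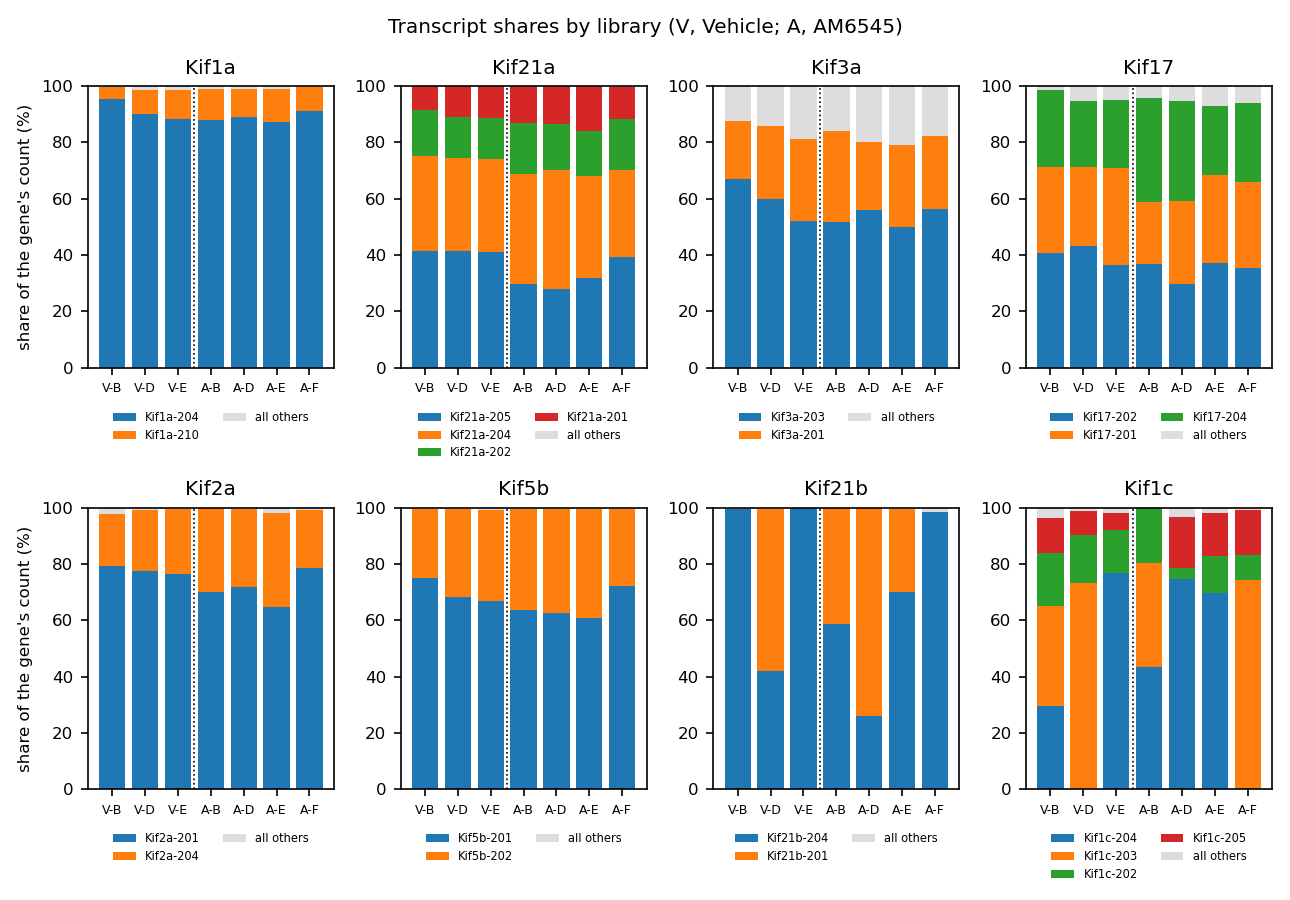
Share of each gene's count (%) assigned to its transcripts in each library, for 8 kinesin genes, with the dotted line between Vehicle (V) and AM6545 (A). For Kif21a the bottom segment, Kif21a-205, is 41.1% to 41.5% in Vehicle and 27.8% to 39.2% in AM6545, and for Kif21b and Kif1c the segments change from library to library.

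The list of transport partners held 57 genes, Kif1bp among them, of light chains, adaptors, other kinesins, dynein and dynactin. All were tested, none had an adjusted p under 0.05, and 11 had an unadjusted p under 0.05 (19.3%, against 14.6% of all genes), 5 lower and 6 higher. The median log2 fold change was 0.027, beside 0.0079 over all genes. Of the 11, 3 lower and 2 higher were among the 11 dynein genes, 1 lower and 3 higher among the 20 cargo adaptors, 1 lower among the 9 dynactin genes and 1 higher among the 8 dynein regulators. The 6 light chains and partners of the heavy chains had none. Klc1, the main neuronal light chain of conventional kinesin, measured 883, 766, 668 and 802 CPM in AM6545 B, D, E and F and 578, 639.8 and 878 CPM in Vehicle B, D and E. Vehicle E was high and Vehicle B low, as for Kif3a and Kif1bp. Kifap3, the adaptor of Kif3a and Kif3b, showed the same order at 231, 192, 164 and 199 CPM and 143, 157 and 227 CPM. Neither had an adjusted p under 0.05 (0.623 and 0.643).

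Among dynein genes the lower ones were Dynlt1b, Dync1h1 and Dynlrb1. Dync1h1, the heavy chain that moves cargo towards the cell body, measured 184, 182, 161 and 191 CPM after AM6545 and 266, 205 and 228 CPM after vehicle, with no overlap and a log2 difference of -0.38 (SE 0.11, adjusted p = 0.212). Dynlrb1, a light chain, measured 144, 151, 145 and 168 CPM and 235, 188 and 159.9 CPM (a log2 difference of -0.35 (SE 0.13, adjusted p = 0.261)). Dynlt1b, another light chain and one of several near-identical mouse copies whose reads could be split, measured 12.4, 12.6, 11.9 and 12.1 CPM and 17.8, 15.9 and 14.9 CPM (a log2 difference of -0.40 (SE 0.11, adjusted p = 0.199)). With GC and length correction these 3 values became -0.08, -0.029 and -0.14. Higher values were found for the light chain Dynlt3, at 210.0, 235, 241 and 224 CPM and 169.9, 190.5 and 179 CPM with no overlap (a log2 difference of 0.34 (SE 0.094, adjusted p = 0.205)), and for the dynein adaptor Hook1, at 20.1, 19.2, 20.1 and 19.5 CPM and 12.2, 16.1 and 17.3 CPM (a log2 difference of 0.38 (SE 0.13, adjusted p = 0.245)). With GC and length correction these became 0.16 and 0.20. Hap1, the huntingtin-associated protein that links cargo to kinesin and dynein, measured 116, 115, 94.1 and 106 CPM and 73.1, 71.8 and 96.7 CPM, where Vehicle E lay inside the AM6545 range (a log2 difference of 0.43 (SE 0.13, adjusted p = 0.218)). Its value was 0.47 after GC and length correction. Kifc2, a C-terminal kinesin of neuronal processes, and Kifc3 had log2 fold changes of -0.076 and 0.0019.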

How the data were processed

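Estimated counts per gene and per transcript were deposited by the authors in 2 tables, with 1 column for each of the 7 libraries. Per the submitters' processing notes, Salmon 1.5.2 and the build mm10 were used. The annotation release and the use of strand are not given in the sources used here. Per the labels' protocols, an RNeasy kit gave the RNA and a SMARTer Ultra Low Input kit the libraries. The values are not scaled to a common total.

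Estimated counts were rounded for testing. The 2 treatments were compared in R 4.3.3 with edgeR 4.0.16, by its quasi-likelihood test in the robust form, after filterByExpr and TMM scaling, with Benjamini-Hochberg adjustment over all 14654 genes or 33962 transcripts tested. The standard error is the size of the log2 fold change over the root of the F statistic. Levels are CPM on TMM-scaled library sizes. Lengths, GC content and positions come from GENCODE M21 on GRCm38, which matched 22148 of 22248 gene identifiers without version numbers, and symbols from a table of gene names. Shared sequence was counted over stretches of 31 bases on either strand. The code was tested on simulated data.

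Alternatives were DESeq2 (1.42.0), limma-voom (limma 3.58.1) with quality weights, other scalings, other count filters, correction of each library for its lowess trend with GC content and length (span 0.3), the replicate letter as a block, and leaving out each library. The labels state no pairing by letter. Deviations from the group means correlated at -0.31 to -0.14 between libraries of the same letter and at -0.17 to 0.33 between different letters. Centring within each group ties these correlations to each other, so they do not decide whether the letters pair the libraries. Every library's value is given for 13 fixed genes and for the 4 other members per direction with the smallest p; of the partners and the transcripts 3 per direction were named, and the Klc1, Kifap3, Kifc2 and Kifc3 values, Kif1a-210, Kif1b and the other transcripts of Kif21a, Kif21b and Kif1c were added after the values were seen. The members and lists were chosen with earlier results of these data known.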

Additional observations from a re-analysis of the deposited data

Results flagged for a closer look

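In the group of 4 AM6545 libraries, 2 of 44 genes and transcripts had 1 library far from the rest by Dixon's ratio of the gap to the range; chance gives about 1 in 20, and the 3 Vehicle libraries are too few for this check. Kif1c stood at 6.02 CPM in AM6545 E, against 7.31 to 7.52 CPM in AM6545 B, D and F. Kif21a stood at 143 CPM in AM6545 B, against 111 to 116 CPM in the other 3.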

How the results depend on the processing

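No kinesin gene passed an adjusted p of 0.05 under any alternative except without Vehicle E; over the fits that left out 1 library the count ran from 0 to 2. The count at an unadjusted p under 0.05, 4 in all libraries, was 9 with limma-voom (where 23.9% of all genes had one), 2 with GC and length correction together with the replicate block (2.91% of all genes), and 2 to 12 when 1 library was left out, with the most without Vehicle E (25.7% of all genes). No kinesin transcript passed under any alternative run for transcripts. Of the partners, 1 of 57 passed with DESeq2 (1.75%, beside 1.4% of all genes), 4 with limma-voom (7.02%, beside 2.69%) and 0 to 8 when 1 library was left out, with the most without Vehicle E (14.04%, beside 6.38%). With DESeq2 it was Dynlt3, and with limma-voom Dync1li2, Dynlt1b, Dynlt3 and Hap1. Without Vehicle E the 8 were Dync1i1, Dync1li1, Dync1li2, Dynlrb1, Dynlt1b, Hap1, Hook1 and Rhot1.

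The transport median ran from -0.0523 to 0.0253 over the fits without 1 library, and the mitotic median was 0.248 with limma-voom, -0.139 with GC and length correction, and from -0.136 to 0.155 without 1 library; a mean of at least 50 counts left no mitotic gene. With the replicate block 0 kinesin genes passed the adjusted threshold, and 4 had an unadjusted p under 0.05.

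Of the 27 genes named with every value, 7 changed sign under an alternative, none of them called. The log2 fold changes that did were Kif5b 0.05, Kif21a -0.01 and Kif6 -0.10 under limma-voom, Kif5b 0.03 under the replicate block, Kif5b 0.02 and Kif3b 0.03 under total counts scaling, Kif3b 0.0019 under no filter, Kif21a -0.01 and Kif2a -0.13 under GC and length correction, Kif2a -0.20 and Kif13b 0.01 under GC and length correction with replicate block. Without 1 library, the ranges of those that changed sign were Kif5a -0.0028 to 0.3, Kif5b -0.06 to 0.03, Kif3b -0.04 to 0.04 and Kif21a -0.07 to 0.09. The cause was not tested. Depth limits the mitotic kinesins, at under 60 counts per gene and library.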
